A study of Homo sapiens with 12 samples.

Results

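The mitochondrial genome of human cells carries 37 genes, all of which had a row in the count table of 63677 genes from Huh7, a line grown from a human liver cancer. They were taken as every gene whose symbol starts with MT-: 13 mRNAs of respiratory chain subunits, 2 rRNAs and 22 tRNAs. Untreated cells in medium alone were compared with cells treated for 6 h with graphene oxide flakes (GO) at 400 µg/mL, with GO loaded with the ginsenoside Rg3 (GO-Rg3) at 400 µg/mL, or with GO loaded with Rg3 and the anthracycline doxorubicin (GO-Rg3-DOX) at 100 µg/mL. Each group had 3 samples of the same line. GO-Rg3-DOX was therefore given at a lower dose than the other flakes, and dose and cargo cannot be told apart in it.  The sources do not say what separates the replicates of a group, so p-values measure the spread between these samples.

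Mitochondrial DNA is a small circle that is transcribed from both strands into long RNAs. The RNAs are cut mostly at the tRNAs that lie between the other genes, which frees the rRNAs of the mitochondrial ribosome and the mRNAs. Most genes are read from the heavy strand, and MT-ND6 and a minority of the tRNAs are read from the light strand. Transcription depends on a dedicated polymerase and on factors imported from the cytosol, and the encoded proteins join many nuclear-encoded subunits in respiratory complexes I, III and IV and in the ATP synthase, complex V.

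In the annotation of GRCh37, 28 of the 37 genes are transcripts of the heavy strand (12 mRNAs, 2 rRNAs and 14 tRNAs) and 9 are transcripts of the light strand (MT-ND6 and 8 tRNAs). The 12 heavy-strand mRNAs are poor in G, at 6.3% to 16.2% of their bases, and MT-ND6 holds 35.6%. The genes lie so close together that neighbours share bases, which matters for reads that are assigned to a single gene. The stretches below are shown because they hold the shared bases behind the values of 4 mRNAs, the junction between genes of opposite strands, and the light-strand tRNAs that took most tRNA counts. All are from chromosome M of GRCh37, 5′ to 3′. In the first (chrM:8497-8602, plus strand), capitals mark the 46 bases that belong to both MT-ATP8 and MT-ATP6. In the next (chrM:10730-10796, plus strand), capitals mark the 7 bases shared by MT-ND4L and MT-ND4. In the third (chrM:14109-14188, plus strand), lower case is the end of MT-ND5 and capitals are the last 40 bases of MT-ND6, which is read from the opposite strand, with no base between the genes. The fourth (chrM:5657-5826, minus strand) runs from MT-TC to MT-TN as the light-strand transcript reads, with the 31 bases between both tRNAs in capitals, where replication of the light strand is known to start. The last are MT-TY (chrM:5826-5891, minus strand) and MT-TP (chrM:15956-16023, minus strand), whole and in lower case.
MT-ATP8 and MT-ATP6: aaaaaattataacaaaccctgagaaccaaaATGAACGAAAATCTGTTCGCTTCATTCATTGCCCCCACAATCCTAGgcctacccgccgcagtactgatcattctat
MT-ND4L and MT-ND4: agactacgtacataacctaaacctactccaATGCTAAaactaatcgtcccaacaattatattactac
MT-ND5 and MT-ND6: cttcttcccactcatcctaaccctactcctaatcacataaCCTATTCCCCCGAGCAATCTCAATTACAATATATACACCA
MT-TC to MT-TN: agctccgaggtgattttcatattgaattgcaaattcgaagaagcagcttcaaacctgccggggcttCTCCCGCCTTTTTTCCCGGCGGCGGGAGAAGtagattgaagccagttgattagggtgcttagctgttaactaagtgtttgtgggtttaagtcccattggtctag
MT-TY: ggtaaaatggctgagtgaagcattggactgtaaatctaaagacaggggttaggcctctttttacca
MT-TP: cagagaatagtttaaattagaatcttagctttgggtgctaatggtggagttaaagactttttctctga

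Gene counts per sample summed to 27802871 to 38877420, of which 1659746 to 6912180 fell on the mitochondrially encoded genes. All 10 markers of hepatocyte-derived cells were detected, led by AFP and ALB, serum proteins of fetal and adult liver, at 13436 and 4526 CPM (counts per 1000000 counts) in untreated cells. The 10 summed to 27303 to 27713 CPM in untreated samples, 14754 to 20679 after GO, 21855 to 25944 after GO-Rg3 and 24486 to 32686 after GO-Rg3-DOX. AFP averaged 5934 CPM after GO, and ALB, TF, TTR, FGB, APOA1 and KRT18 also had lower means than in untreated cells. The means of HNF4A (566 CPM after GO beside 397), APOB (2096 beside 1743) and SERPINA1 (2009 beside 1737) were higher. Of 5 leukocyte markers, PTPRC, CD3E and CD68 stayed under 10 counts in every sample, and CD14 and LYZ averaged 1.37 and 164 CPM in untreated cells; the 5 summed to 163 to 168, 104 to 144, 124.8 to 149 and 85.5 to 139 CPM in the same order of groups. Of 6 markers of MDA-MB-231, a breast cancer line also used in the study, AXL and MSLN stayed under 10 counts. The 6 summed to 372 to 398 CPM in untreated samples, 511 to 733 after GO, 404 to 449 after GO-Rg3 and 351 to 467 after GO-Rg3-DOX, most of it VIM (366 CPM in untreated cells and 564 after GO). The part of these marker differences in the results was not tested. Of the 37 genes, 35 were tested, having 10 counts or more in 3 or more samples. MT-TW (0 to 9 counts) and MT-TA (1 to 15 counts), both tRNA genes, did not and were not tested.

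The share of a library that came from mitochondrially encoded genes was higher with GO and with GO-Rg3-DOX than in untreated cells, and stood near the untreated share with GO-Rg3. These shares are described without a test. It was 5.31%, 5.84% and 6.28% of all gene counts in the 3 untreated samples and 24.1%, 12.1% and 14.8% after GO. After GO-Rg3 the shares were 6.89%, 7.40% and 7.42%, and after GO-Rg3-DOX they were 19.4%, 13.9% and 12.8%. The means were 5.81% ± 0.489, 17.01% ± 6.28, 7.24% ± 0.301 and 15.4% ± 3.51 (SD, n = 3 each). Each GO and GO-Rg3-DOX sample lay above each untreated and each GO-Rg3 sample, and the lowest GO-Rg3 sample (6.89%) lay above the highest untreated sample (6.28%). GO replicate 1 stood apart from its group, and without it the mean share after GO was 13.5%. In RNA from whole cultures, fewer cells and less RNA per cell cannot be told apart, and a larger share of mitochondrial RNA cannot be told apart from a smaller amount of nuclear-encoded RNA.

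**Figure D1:**
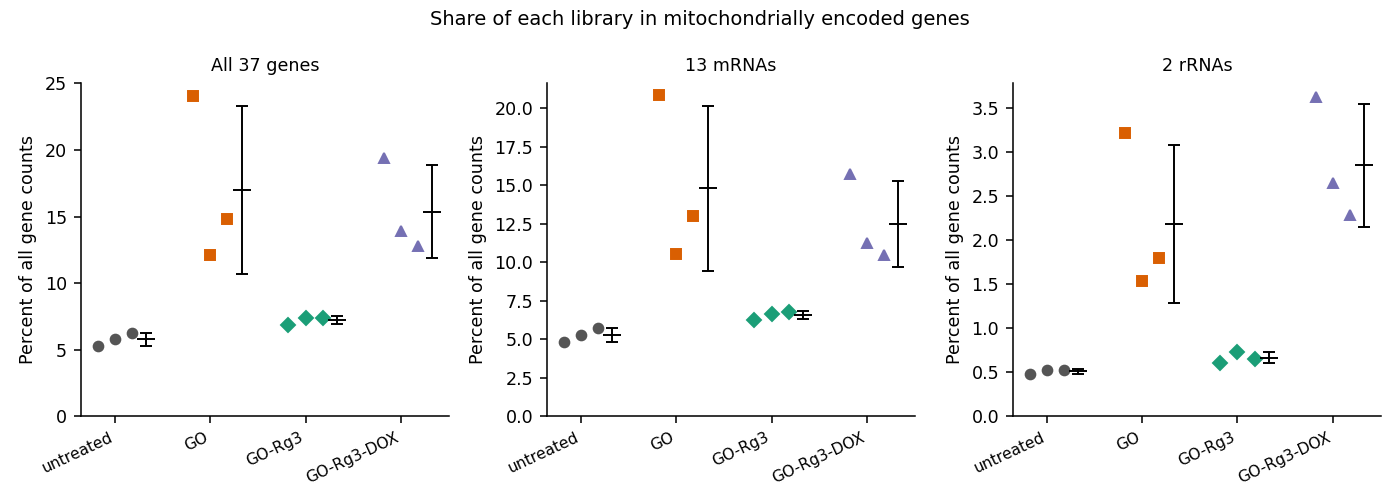
Percent of all gene counts (y axis, from 0) in the 37 mitochondrially encoded genes, the 13 mRNAs and the 2 rRNAs, for each of the 3 samples of the 4 groups (points), with the group mean and SD (black bar). Untreated samples lie at 5.31% to 6.28% for all 37 genes and GO samples at 12.1% to 24.1%.

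The mRNAs made up most of this share, with 5.29% ± 0.466 of all counts in untreated cells, 14.8% ± 5.37 with GO, 6.56% ± 0.255 with GO-Rg3 and 12.5% ± 2.81 with GO-Rg3-DOX (SD, n = 3 each). The rRNAs took 0.511% ± 0.0267, 2.19% ± 0.902, 0.665% ± 0.0618 and 2.85% ± 0.696 in the same order. The tRNAs took 0.00728% ± 0.000767, 0.0239% ± 0.0107, 0.00883% ± 0.00124 and 0.0296% ± 0.0086. The libraries were made from RNA selected for poly(A) tails, which mitochondrial mRNAs other than MT-ND6 carry, rRNAs carry as short stubs and mature tRNAs lack. Shares of the 3 classes are therefore shares of what was captured.

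The 2 rRNAs had the largest log2 fold changes of the 15 mRNAs and rRNAs in each comparison but GO-Rg3 against untreated. MT-RNR1 (ENSG00000211459, chrM:648-1601), the rRNA of the small subunit of the mitochondrial ribosome, had a TMM-normalized CPM of 1236, 1339 and 1302 in untreated samples and 11284, 4570 and 5153 after GO. It had 1463, 1889 and 1568 CPM after GO-Rg3 and 11755, 7434 and 6341 CPM after GO-Rg3-DOX. All GO and GO-Rg3-DOX samples were above all samples of the other groups. By the quasi-likelihood test of edgeR, with p adjusted by Benjamini-Hochberg over 17092 genes, its log2 fold change was 2.44 ± 0.29 (SE, adjusted p = 2.59e-05) for GO against untreated and 2.72 ± 0.30 (adjusted p = 1.15e-06) for GO-Rg3-DOX against untreated. MT-RNR2 (ENSG00000210082, chrM:1671-3229), the rRNA of the large subunit, had 3178, 3461 and 3498 CPM in untreated samples and 24871, 9726 and 12022 after GO. It had 4043, 4638 and 4285 CPM after GO-Rg3 and 37503, 23271 and 20272 after GO-Rg3-DOX, with the same lack of overlap. Its log2 fold change was 2.20 ± 0.29 (adjusted p = 4.92e-05) for GO and 3.00 ± 0.30 (adjusted p = 4.31e-07) for GO-Rg3-DOX. In GO-Rg3 against GO, MT-RNR1 changed by -2.09 ± 0.29 (adjusted p = 0.000189) and MT-RNR2 by -1.85 ± 0.29 (adjusted p = 0.00042).

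After TMM scaling, which gives levels relative to other genes, all 13 mRNAs were higher with GO than in untreated samples. With both rRNAs, 15 of 15 passed an adjusted p below 0.01 with higher values and a log2 fold change above 1, where 12.1% of all tested genes passed that p with higher values and 3.84% also passed the fold. The median log2 fold change of the 13 mRNAs was 1.73 (range 1.46 to 2.10), beside 0.01 over all genes tested. In all 15 the GO and untreated samples did not overlap, as in 28.6% of all tested genes in that direction. The 15 values are not independent, because they rise and fall together from library to library. Without GO replicate 1 the median was 1.23.

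GO-Rg3-DOX against untreated gave a median of 1.72 (range 0.99 to 1.94), beside -0.06 over all genes. Again 15 of 15 passed the adjusted p with higher values, where 25.5% of all genes did, and 14 of 15 also had a log2 fold change above 1, where 12.6% did. MT-ND2 was the exception at 0.99. Untreated and GO-Rg3-DOX samples did not overlap in any of the 15, as in 35% of all genes. This comparison depended on the scaling: scaled by library totals, the median of all genes was -0.47 and that of the 13 mRNAs 1.27, a difference close to that under TMM.

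For GO-Rg3 against untreated, 0 of 35 members passed the adjusted p in edgeR, and 0 did in DESeq2. At an unadjusted p below 0.05 there was 1, the tRNA MT-TL2 (log2 fold change 1.13 ± 0.43, adjusted p = 0.241). Of all genes, 0.0585% passed with higher values, and 0.0117% also had a log2 fold change above 1. The log2 fold changes of the 13 mRNAs lay between 0.12 and 0.49, with a median of 0.30, SEs of 0.24 to 0.33 and adjusted p from 0.573 to 0.88. In 14 of the 15 mRNAs and rRNAs the GO-Rg3 samples were nonetheless all above the untreated samples, as in 9.12% of all genes; the exception was MT-ND3 with overlapping values.

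GO-Rg3 and GO were given at equal dose, and GO-Rg3 had lower values of all 15 genes. The median log2 fold change of the 13 mRNAs was -1.40 (range -1.61 to -1.28), beside -0.02 over all genes. All 15 passed the adjusted p with lower values and a log2 fold change below -1, where 6.25% and 2.07% of all genes did, and the groups did not overlap in any of them, as in 18.9% of all genes. This comparison rested on the GO samples that also enter GO against untreated, so both sets of values share their error. Without GO replicate 1 the median was -0.93. Over all 35 tested members, 22 passed with lower values, 12 without GO-Rg3 replicate 3 and 7 in a fit of these 6 samples alone.

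**Figure D2:**
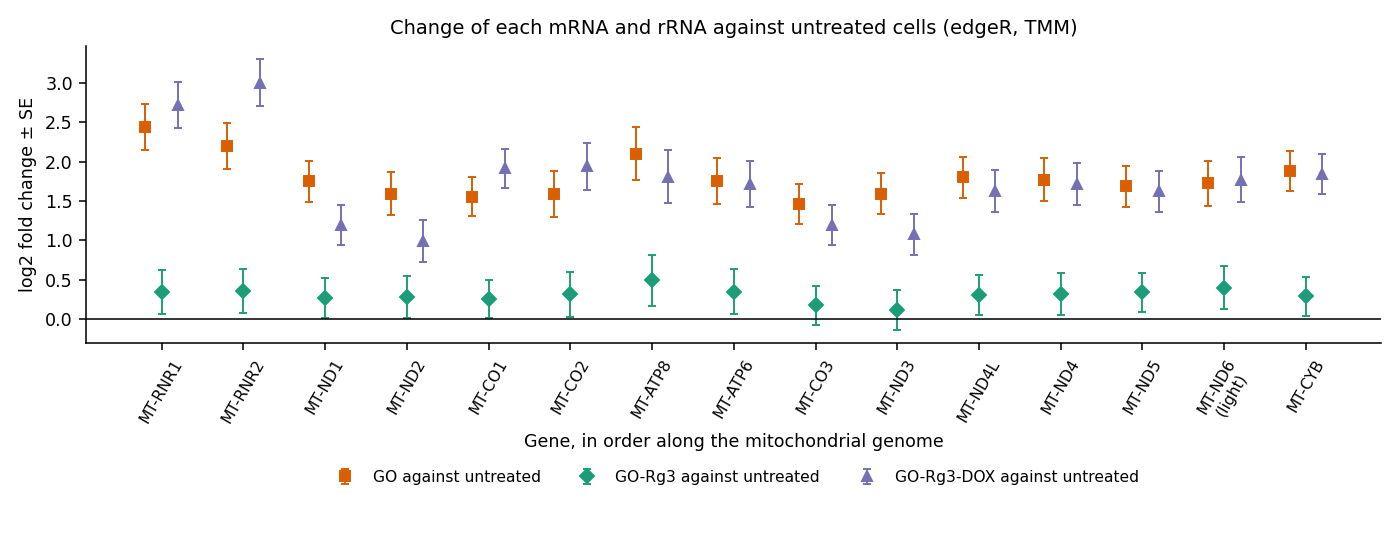
log2 fold change with SE (y axis) of each mRNA and rRNA in order along the mitochondrial genome (x axis), for the 3 treatments against the same 3 untreated samples. GO values lie between 1.46 and 2.44, GO-Rg3 values between 0.12 and 0.49, and GO-Rg3-DOX values dip at MT-ND1, MT-ND2, MT-CO3 and MT-ND3.

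Complex I, which takes electrons from NADH, has 7 subunits encoded here. MT-ND1 (ENSG00000198888, chrM:3307-4262) had 1690, 1857 and 1969 CPM in untreated samples, 9372, 4026 and 5142 after GO, 2244, 2098 and 2305 after GO-Rg3 and 5731, 3587 and 3295 after GO-Rg3-DOX. Its log2 fold change was 1.75 ± 0.26 (SE, edgeR adjusted p = 0.000111) for GO and 1.19 ± 0.25 (adjusted p = 0.000659) for GO-Rg3-DOX. The samples of both groups were above all untreated samples. MT-ND2 (ENSG00000198763, chrM:4470-5511) had 2998, 3040 and 3309 CPM in untreated samples, 14819, 5857 and 7509 after GO, 3824, 3734 and 3831 after GO-Rg3 and 8471, 5172 and 4922 after GO-Rg3-DOX. It changed by 1.59 ± 0.27 (adjusted p = 0.000344) after GO and by 0.99 ± 0.27 (adjusted p = 0.00416) after GO-Rg3-DOX. The latter was the weakest call among the 15, and its adjusted p was above 0.01 when any untreated sample was left out, without GO-Rg3-DOX replicate 1 (log2 fold change 0.71) and under library totals (0.55) or totals of nuclear genes (0.71).

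MT-ND3 followed the same order, with a log2 fold change of 1.59 ± 0.26 (adjusted p = 0.000249) for GO and 1.08 ± 0.26 (adjusted p = 0.0017) for GO-Rg3-DOX. The latter also lost its call without GO-Rg3-DOX replicate 1 (0.85). MT-ND4L, MT-ND4 and MT-ND5 were close to each other in both comparisons, at 1.69 to 1.80 for GO and 1.62 to 1.72 for GO-Rg3-DOX. MT-ND4 (ENSG00000198886, chrM:10760-12137) had the highest counts per kilobase of the 7, and its CPM was 5988, 6723 and 7415 in untreated samples, 35442, 14559 and 18749 after GO, 7660, 8710 and 8710 after GO-Rg3 and 30142, 18928 and 17191 after GO-Rg3-DOX. The GO and GO-Rg3-DOX samples again lay above all others.

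MT-CYB (ENSG00000198727, chrM:14747-15887), cytochrome b, is the complex III subunit among the genes. It had 2890, 3272 and 3537 CPM in untreated samples, 17981, 7733 and 9958 after GO, 3926, 3792 and 4130 after GO-Rg3 and 15641, 10080 and 9139 after GO-Rg3-DOX. GO and GO-Rg3-DOX samples did not overlap with the other groups. Its log2 fold changes were 1.88 ± 0.26 (adjusted p = 6.45e-05) and 1.85 ± 0.26 (adjusted p = 1.32e-05), both above the median of the mRNAs.

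The 3 catalytic core subunits of complex IV, cytochrome c oxidase, parted after GO-Rg3-DOX. MT-CO1 (ENSG00000198804, chrM:5904-7445) had 10368, 12010 and 12843 CPM in untreated samples, 51043, 23196 and 29212 after GO, 13347, 14195 and 14522 after GO-Rg3 and 60082, 36698 and 35892 after GO-Rg3-DOX. Its log2 fold change was 1.55 ± 0.25 (adjusted p = 0.000216) after GO and 1.91 ± 0.25 (adjusted p = 7.72e-06) after GO-Rg3-DOX. MT-CO2 changed by 1.59 ± 0.29 (adjusted p = 0.000582) and 1.94 ± 0.29 (adjusted p = 3.18e-05). MT-CO3 (ENSG00000198938, chrM:9207-9990) had 5777, 6081 and 6661 CPM in untreated samples, 25688, 11173 and 14002 after GO, 6841, 6826 and 7264 after GO-Rg3 and 19184, 11906 and 11240 after GO-Rg3-DOX. It changed by 1.46 ± 0.25 (adjusted p = 0.000398) after GO and by 1.19 ± 0.25 (adjusted p = 0.000637) after GO-Rg3-DOX.

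For complex V, MT-ATP8 had 318, 240 and 364 CPM in untreated samples, 2316, 747 and 899 after GO, 443, 448 and 408 after GO-Rg3 and 1450, 1015 and 773 after GO-Rg3-DOX. Its log2 fold change of 2.10 ± 0.34 (adjusted p = 0.000228) after GO was the highest of the 13 mRNAs, with the widest SE. MT-ATP6, which forms the proton path of the enzyme, changed by 1.75 ± 0.29 (adjusted p = 0.000316) after GO and 1.72 ± 0.29 (adjusted p = 0.000101) after GO-Rg3-DOX. MT-ATP8 is 207 bases long and shares the 46 bases printed above with MT-ATP6. Whether reads there were left out or assigned is not given in the sources used here, so the level of MT-ATP8 is uncertain.

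Compared per length, as counts per kilobase and 1000000 counts, MT-CO2 (9214 ± 678), MT-CO3 (8610 ± 635) and MT-CO1 (8327 ± 916) were highest in untreated cells (SD, n = 3). MT-CO2 was above both others in each untreated library, and the order of MT-CO3 and MT-CO1 varied between libraries. MT-ATP6 (6487 ± 476), MT-ND4 (5324 ± 576) and MT-ND4L (3902 ± 419) came next. MT-ND2 (3270 ± 177) was above MT-CYB (3099 ± 319) in each untreated library. MT-ND1 (2103 ± 166), MT-ND3 (1911 ± 125.2), MT-ND5 (1895 ± 196) and MT-ATP8 (1624 ± 324) followed. MT-ND6 (1377 ± 134) had the lowest mean of the mRNAs, but in untreated replicate 2 MT-ATP8 (1278) was below MT-ND6 (1389). Heavy-strand mRNAs that come from a common precursor thus differed several-fold in level per length. After GO-Rg3-DOX, MT-CO2 (25955 ± 6500) and MT-CO1 (23067 ± 4898) stayed highest. MT-CO3 (14475 ± 3106) stood below MT-ATP6 (15647 ± 4425) in each GO-Rg3-DOX library.

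Ratios within a library do not depend on how libraries are scaled against each other; they are described without a test. For every 100 mRNA counts there were 9.96, 9.96 and 9.12 rRNA counts in untreated samples, 15.4, 14.6 and 13.9 after GO, 9.69, 11.0 and 9.71 after GO-Rg3 and 23.1, 23.5 and 21.7 after GO-Rg3-DOX. GO and GO-Rg3-DOX samples were all above the untreated samples, while GO-Rg3 overlapped with them. GO replicate 1, which had the highest mitochondrial share, had a ratio close to the other GO samples. RNAs that lack poly(A) tails (7 of 8 listed genes had a row, among them RN7SK and RN7SL1) summed to 29.6 to 31.7 CPM in untreated samples, 21.3 to 31.3 after GO, 21.7 to 23.5 after GO-Rg3 and 35.01 to 46.3 after GO-Rg3-DOX. The nuclear-retained RNAs MALAT1 and NEAT1 summed to 222 to 272, 398 to 510, 229 to 364 and 129 to 168 CPM in the same order. The sum without tails was mostly the histone gene HIST1H1C, with means of 23.7, 15.3, 16.3 and 23.9 CPM. RN7SK had means of 1.04, 3.39, 1.97 and 8.47 CPM, RMRP 0.271, 1.04, 0.455 and 0.61, and RPPH1 0.0385, 0.706, 0.29 and 0.323, with each treated mean above the untreated mean, while RN7SL1 had 5.29, 5.63, 3.51 and 6.19. RPPH1 lay near the floor in untreated cells, so the size of its change is uncertain. The part of these RNAs in the rRNA ratio was not tested.

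The balance between the rRNAs also differed from untreated cells. MT-RNR2 counts per 100 counts of MT-RNR1 were 257, 259 and 269 in untreated samples and 220, 213 and 233 after GO. They were 276, 246 and 273 after GO-Rg3 and 319, 313 and 320 after GO-Rg3-DOX. All GO samples were below, and all GO-Rg3-DOX samples above, each untreated sample, and GO-Rg3 overlapped with untreated.

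**Figure D3:**
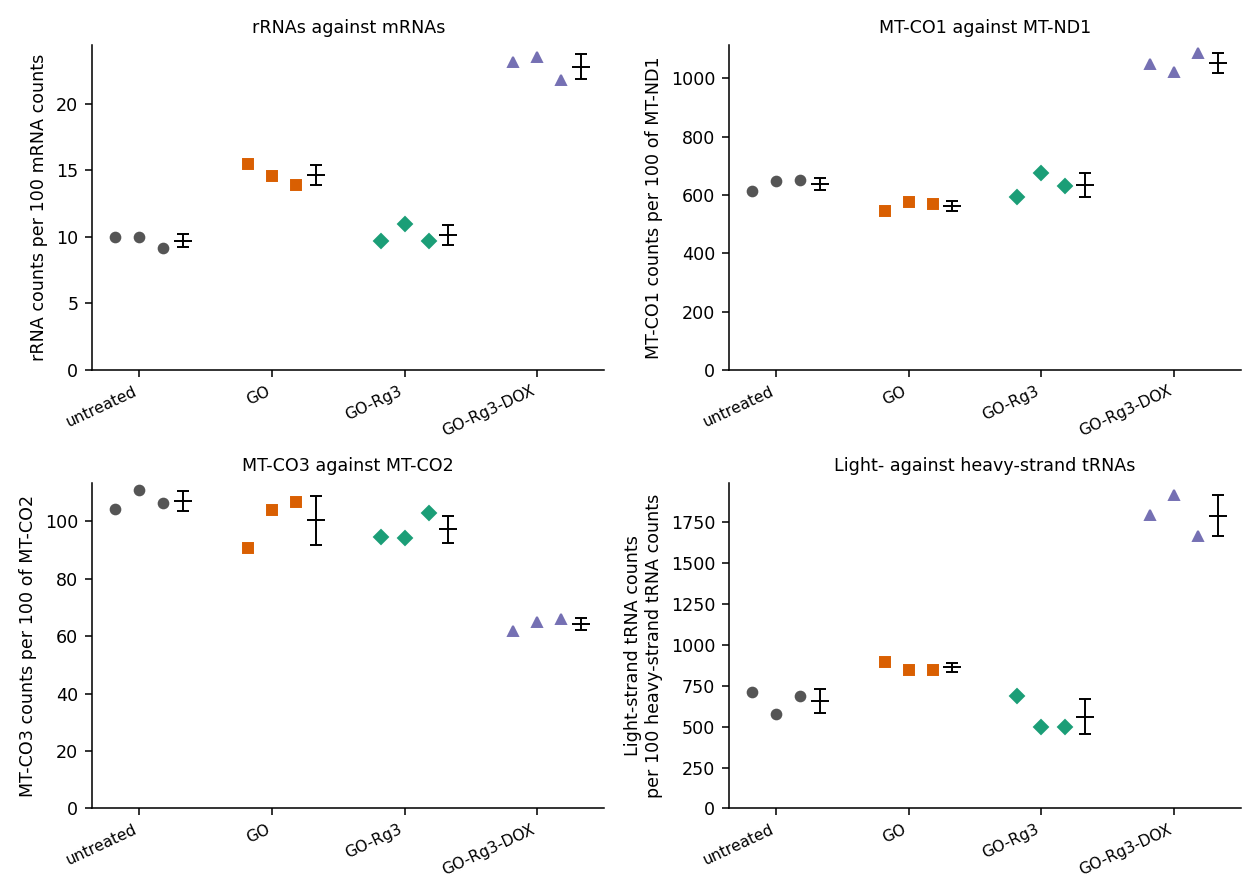
Ratios of counts within each library (y axes, from 0) for the 3 samples of each group (points) with the group mean and SD (black bar): rRNAs against mRNAs, MT-CO1 against MT-ND1, MT-CO3 against MT-CO2, and light-strand against heavy-strand tRNAs. GO-Rg3-DOX samples stand apart in all 4 panels, at 21.7 to 23.5 rRNA counts per 100 mRNA counts beside 9.12 to 9.96 in untreated samples.

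The make-up of the mRNA counts also differed between groups, and is likewise described without a test. The shares are parts of a common total, so lower shares of some mRNAs raise those of the others. MT-ND2 made up 6.77%, 6.31% and 6.28% of the mRNA counts in untreated samples and 3.97%, 3.96% and 4.02% after GO-Rg3-DOX. MT-CO3 made up 13.04%, 12.6% and 12.6% in untreated samples and 8.998%, 9.11% and 9.19% after GO-Rg3-DOX. MT-ND1 made up 3.802% ± 0.0579 in untreated cells and 2.71% ± 0.0315 after GO-Rg3-DOX, and MT-ND3 1.25% ± 0.0678 and 0.829% ± 0.0479 (SD, n = 3 each). All 3 GO-Rg3-DOX values of these 4 mRNAs were below every untreated value. MT-CO1 made up 23.4%, 24.9% and 24.4% in untreated samples and 28.2%, 28.1% and 29.3% after GO-Rg3-DOX. MT-CO2 made up 11.9% ± 0.565 and 14.2% ± 0.33, and MT-CYB 6.68% ± 0.138 and 7.51% ± 0.192. MT-CO1, MT-CO2, MT-CYB and MT-ND6 had higher shares without overlap, and the other 5 mRNAs overlapped with untreated. How much of the higher shares follows from the lower ones was not tested. The same directions held for shares of counts per kilobase, where MT-ND4 was also higher without overlap, and with the 4 overlapping genes left out.

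Single pairs showed the size of this shift. MT-CO1 counts per 100 counts of MT-ND1 were 613, 647 and 652 in untreated samples, 545, 576 and 568 after GO, 595, 677 and 630 after GO-Rg3 and 1048, 1023 and 1089 after GO-Rg3-DOX. The GO-Rg3-DOX mean was 1.65 times the untreated mean. MT-CO3 counts per 100 counts of MT-CO2 were 104, 110.8 and 106 in untreated samples, 90.7, 104 and 107 after GO, 94.6, 94.2 and 102.7 after GO-Rg3 and 61.9, 64.9 and 66.0 after GO-Rg3-DOX. The latter mean was 0.6 times the untreated mean, and the GO-Rg3-DOX samples lay below all untreated samples. The 4 mRNAs with lower shares do not form a single block: MT-ND1 and MT-ND2 lie next to the rRNAs, and MT-CO3 and MT-ND3 lie past MT-CO1, MT-CO2 and MT-ATP6, whose shares were not lower. All 4 lack a complete stop codon in the genome, ending in a lone T or in TA that the poly(A) tail completes, a feature they share with MT-ND4 and MT-CYB, whose shares were not lower.

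After GO other genes stood apart. MT-CYB made up 6.52%, 6.79% and 6.72% of the mRNA counts in untreated samples and 7.68%, 7.89% and 8.05% after GO. MT-CO3 was at 11.0%, 11.4% and 11.3%, below the untreated samples. MT-ND4 made up 15.05% ± 0.168 after GO and 13.8% ± 0.297 in untreated cells. MT-CYB, MT-ND4, MT-ND4L, MT-ND1 and MT-ATP8 were higher and MT-CO3 was lower without overlap, and the other 7 mRNAs overlapped. The share of MT-ND1 was thus above untreated after GO and below it after GO-Rg3-DOX. After GO-Rg3, MT-CO3 (11.9% ± 0.332) and MT-ND3 (1.12% ± 0.0597) were below untreated without overlap, and the other 11 overlapped. With MT-ATP8, MT-ATP6, MT-ND4L and MT-ND4 left out, MT-ND3 overlapped too after GO-Rg3, and after GO MT-ND5 and MT-ND6 were also higher without overlap. Per kilobase, MT-ND2 and MT-ND3 were also lower without overlap after GO.

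Summed by complex, complex IV mRNAs were 48.9% ± 0.0136 of the mRNA counts in untreated cells, 45.5% ± 0.592 with GO, 47.9% ± 0.379 with GO-Rg3 and 51.8% ± 0.605 with GO-Rg3-DOX. Complex I mRNAs were 35.4% ± 0.239, 37.02% ± 0.182, 35.96% ± 0.822 and 31.5% ± 0.519 in the same order. GO samples were below untreated for complex IV and above it for complex I, and GO-Rg3-DOX samples the reverse, all without overlap. GO-Rg3 samples were also below untreated without overlap for complex IV, and overlapped with untreated for complex I. Complex V was 8.99% ± 0.358 in untreated cells and overlapped with untreated after every treatment.

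**Figure D4:**
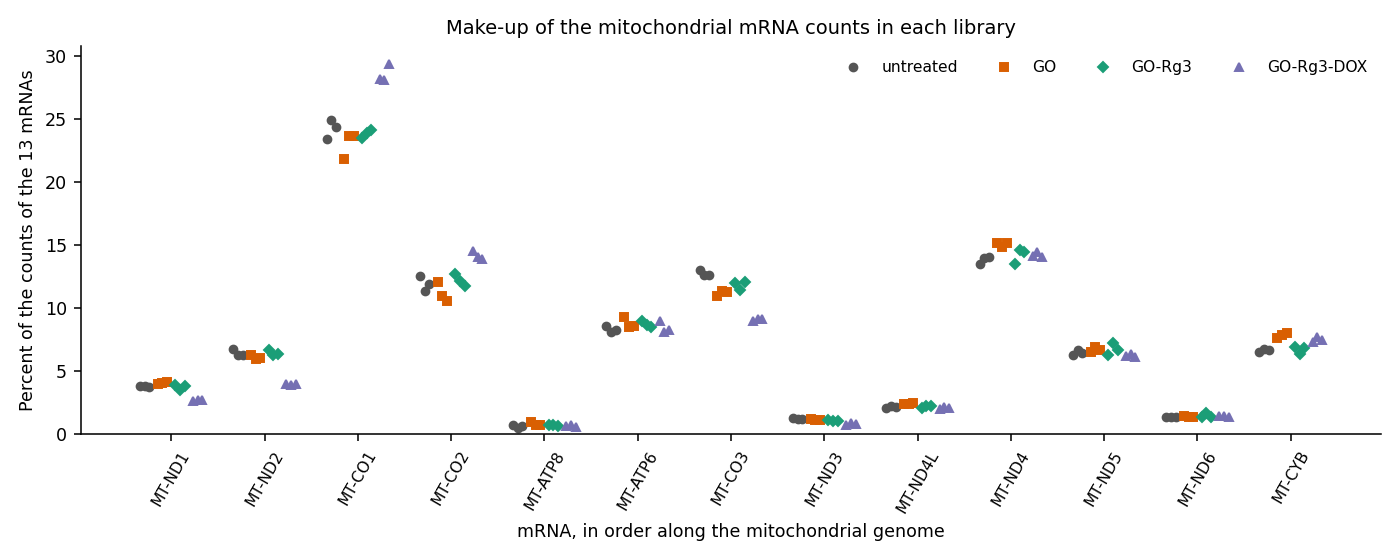
Percent of the summed counts of the 13 mRNAs (y axis, from 0) held by each mRNA, in order along the mitochondrial genome (x axis), with a point for each of the 3 samples of the 4 groups. GO-Rg3-DOX samples are low for MT-ND1, MT-ND2, MT-CO3 and MT-ND3, and high for MT-CO1 at 28.1% to 29.3%.

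MT-ND6 (ENSG00000198695, chrM:14149-14673), the complex I subunit read from the light strand, followed the heavy-strand mRNAs. It had 597, 663 and 723 CPM in untreated samples, 3497, 1380 and 1685 after GO, 767, 995 and 857 after GO-Rg3 and 3090, 1951 and 1715 after GO-Rg3-DOX. Its log2 fold change was 1.73 ± 0.28 (adjusted p = 0.000268) for GO and 1.77 ± 0.28 (adjusted p = 5.63e-05) for GO-Rg3-DOX, near the medians of the 13 mRNAs. MT-ND6 counts per 100 counts of MT-ND5, its neighbour on the other strand, lay between 20.3 and 23.4 in all 12 samples. They averaged 21.1 ± 0.534 in untreated cells and 23.3 ± 0.246 after GO-Rg3-DOX, without overlap. The kit keeps the strand, but the sources do not say whether the counting used it. Among genes that lie inside exons of an opposite-strand gene in an annotation of the same build, 12.4% had a mean of at least 10 counts, beside 12.2% of those inside exons of a same-strand gene, so the counts do not show that strand was used. Transcripts of the heavy strand that run on across the MT-ND6 region would then count for MT-ND6, and both sources cannot be told apart.

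The tRNA genes took few counts. They are 59 to 75 bases long, shorter than the reads, and their reads can also come from uncut precursors. Of the 22, 10 had at least 10 counts in every sample, and the 14 heavy-strand tRNAs stayed at or below 81 counts in every sample except MT-TL1 (150 to 513), the leucine tRNA that follows MT-RNR2. The light-strand tRNAs MT-TP, MT-TN and MT-TC, for proline, asparagine and cysteine, held 87.3% of all tRNA counts, and their sequences are those printed above. MT-TP had 24.0, 26.3 and 30.7 CPM in untreated samples, 199, 64.1 and 81.3 after GO, 26.3, 37.03 and 29.6 after GO-Rg3 and 283, 167 and 150 after GO-Rg3-DOX. Its log2 fold change was 2.08 ± 0.34 (adjusted p = 0.000264) for GO and 2.89 ± 0.35 (adjusted p = 3.5e-06) for GO-Rg3-DOX.

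MT-TN had 12.8, 15.2 and 13.5 CPM in untreated samples, 73.4, 29.5 and 37.6 after GO, 15.1, 17.5 and 14.98 after GO-Rg3 and 121, 54.6 and 59.3 after GO-Rg3-DOX. MT-TC, across the 31 bases in capitals, had 12.9, 16.2 and 13.1 CPM in untreated samples, 72.6, 32.1 and 40.97 after GO, 17.1, 16.7 and 15.8 after GO-Rg3 and 93.3, 49.1 and 49.4 after GO-Rg3-DOX. Both were higher in all GO and GO-Rg3-DOX samples than in any other. Their log2 fold changes for GO-Rg3-DOX were 2.50 ± 0.32 (adjusted p = 5.74e-06) and 2.18 ± 0.28 (adjusted p = 5.73e-06). MT-TY, the tyrosine tRNA beside MT-TC, changed by 2.07 ± 0.39 (adjusted p = 0.000731) after GO and by 2.06 ± 0.39 (adjusted p = 0.000262) after GO-Rg3-DOX.

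Of the 10 tRNAs with at least 10 counts in every sample, 7 passed with higher values after GO, and MT-TG, MT-TR and MT-TH did not (adjusted p = 0.0816 to 0.194), where 12.1% of all genes passed with higher values. After GO-Rg3-DOX 5 of the 10 passed, namely MT-TP, MT-TN, MT-TC, MT-TY and MT-TL1, where 25.5% of all genes did. MT-TL1 changed by 1.28 ± 0.31 (adjusted p = 0.00212), below the rRNA beside it. MT-TV, MT-TE and MT-TH, which had log2 fold changes of 0.42, 0.86 and 0.29 after GO-Rg3-DOX, were among those that missed the threshold. In GO-Rg3 against GO the same number, 5 of 10, passed with lower values, where 6.25% of all genes did. The other tested tRNAs, MT-TF, MT-TI, MT-TQ, MT-TM, MT-TS1, MT-TD, MT-TK, MT-TS2, MT-TL2 and MT-TT, had 1 to 51 counts per sample, and a filter that needs counts in some samples favours those that rose.

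Light-strand tRNA counts per 100 heavy-strand tRNA counts were 710, 575 and 685 in untreated samples and 895, 848 and 846 after GO. They were 685, 498 and 500 after GO-Rg3 and 1791, 1915 and 1663 after GO-Rg3-DOX. The GO and the GO-Rg3-DOX samples lay above all untreated samples, and GO-Rg3 overlapped with them. The ratio mostly reflects MT-TP, MT-TN and MT-TC over a sum led by MT-TL1, and does not describe every tRNA of a strand. Of 7 tested light-strand tRNAs, 5 passed with higher values after GO-Rg3-DOX, where 25.5% of all genes did. MT-TE and MT-TQ did not, at log2 fold changes of 0.86 and -0.30. Among the 5 was MT-TS1, with 5, 4 and 6 counts in untreated samples and 8, 10 and 10 after GO-Rg3-DOX. MT-TS1 met the filter only through GO and GO-Rg3-DOX samples, where it was higher, so its call is no support for the strand. After GO-Rg3-DOX the light-strand tRNAs averaged 9013 counts per sample beside 2141 in untreated samples, and the heavy-strand tRNAs 504 beside 327. The limit on strand given for MT-ND6 holds for the tRNAs too, since each lies opposite a transcript of the other strand.

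Nuclear copies of mitochondrial genes can take some of their reads. The table holds 196 genes named as such copies, of which 8 had a mean of at least 10 counts. MTATP6P1, MTND1P23 and MTND2P28 had the highest means, at 35369, 5964 and 741 counts. Counts of MTATP6P1 per 100 counts of MT-ATP6 lay between 11.7 and 14.6 in all samples, and those of MTND1P23 per 100 of MT-ND1 between 4.88 and 5.83. The copies moved with the genes they resemble, from 0.0698% of all counts in untreated cells to 0.205% after GO. Adding them changed the mitochondrial share after GO from 17.01% to 17.2%.

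The nuclear-encoded subunits of the same complexes included none past the test with higher values after GO. Of 76 listed subunits of complexes I, III, IV and V, 75 were tested; 26 passed the adjusted p with lower values and 0 with higher, where 15.4% and 12.1% of all genes did. Their median log2 fold change was -0.39, beside 1.73 for the 13 mitochondrial mRNAs. The largest changes were in NDUFA4 (-1.17 ± 0.18, adjusted p = 0.000194), a subunit of complex IV, NDUFB6 (-1.06 ± 0.15, adjusted p = 7.03e-05) of complex I, and USMG5 (-0.99 ± 0.21, adjusted p = 0.00159) of complex V. NDUFA4 fell from 292 ± 11.4 to 130 ± 39.7 CPM.

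After GO-Rg3, 1 of the 75 passed with lower values (NDUFA4, -1.16 ± 0.18, adjusted p = 0.00895), where 0.105% of all genes did, and the median was -0.55. After GO-Rg3-DOX 25 passed with higher values and 1 with lower, where 25.5% and 30.5% of all genes did. The 25 were 15 of 37 subunits of complex I, 3 of 9 of complex III, 3 of 11 of complex IV and 4 of 18 of complex V. The median of the 75 was 0.30, beside -0.06 over all genes. ATP5D (1.74 ± 0.29, adjusted p = 8.66e-05) and NDUFS7 (1.32 ± 0.27, adjusted p = 0.000441), of complexes V and I, were among the largest changes, as was NDUFA7 (1.39 ± 0.30, adjusted p = 0.000706), which had 10 to 31 counts under the identifier tested and is uncertain because another row carries its symbol. In GO-Rg3 against GO, 1 subunit passed with higher values (ATP5F1, 0.57 ± 0.12, adjusted p = 0.00286) and 0 with lower. Of all genes, 7.33% passed with higher values and 6.25% with lower. The median of the 75 was -0.17, beside -0.02 over all genes.

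**Figure D5:**
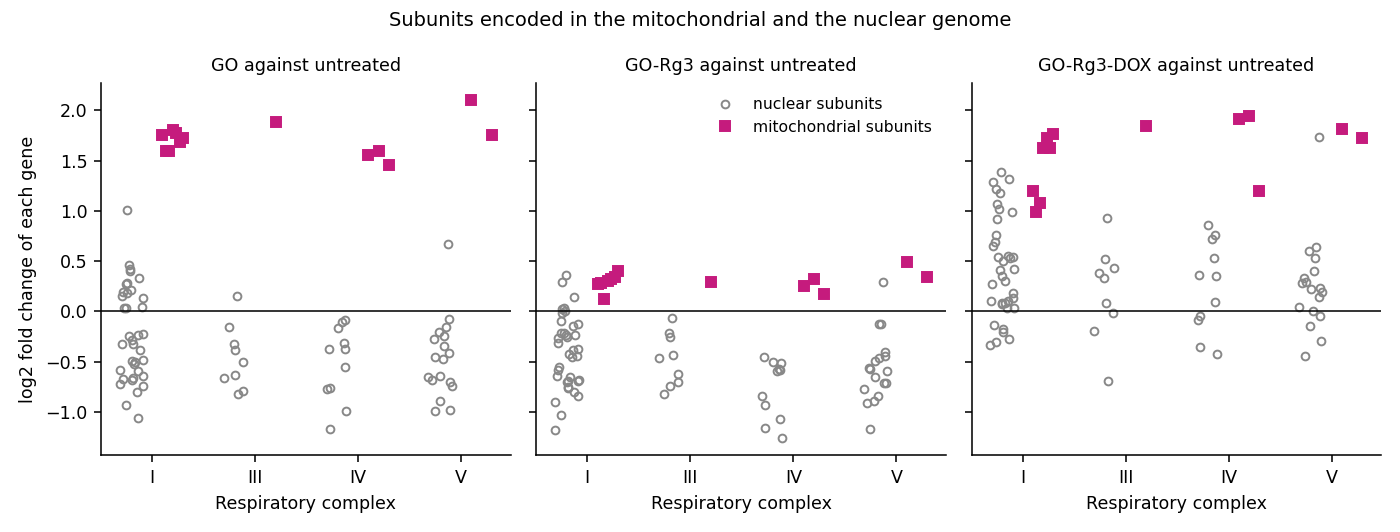
log2 fold change (y axis) of each mitochondrial (squares) and nuclear (circles) subunit of complexes I, III, IV and V (x axis) in the 3 comparisons with the same untreated samples. After GO the mitochondrial subunits lie between 1.46 and 2.10 and the nuclear subunits have a median of -0.39.

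The nuclear genes that keep, transcribe and process mitochondrial DNA and its RNAs passed more often with lower than with higher values after GO and after GO-Rg3-DOX. Of 48 listed genes, all tested, 20 passed with lower and 1 with higher values after GO (median log2 fold change -0.31), and 30 passed with lower and 6 with higher values after GO-Rg3-DOX (median -0.91). Of all genes, 15.4% passed with lower and 12.1% with higher values after GO (median 0.01), and 30.5% and 25.5% after GO-Rg3-DOX (median -0.06). TFB2M, a mitochondrial transcription factor, changed by -1.33 ± 0.17 (adjusted p = 3.25e-05) after GO, from 33.4 ± 1.49 to 13.2 ± 1.92 CPM. PNPT1, the polynucleotide phosphorylase of mitochondrial RNA decay, changed by -1.04 ± 0.16 (adjusted p = 0.000165), from 90.0 ± 0.341 to 43.6 ± 11.0 CPM. PPARGC1A, a coactivator of mitochondrial biogenesis, was the 1 gene counted with higher values after GO (1.57 ± 0.37, adjusted p = 0.00436). It had 8, 8 and 7 counts in untreated samples and 11, 32 and 19 after GO. Because PPARGC1A met the filter of 10 counts in 3 samples only through the GO samples, this call does not show a rise.

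After GO-Rg3-DOX PPARGC1A had 0 counts in all 3 samples, at least 1.83-fold lower than untreated against a floor of 3 counts per library, which covers counting error. MTERFD1, a member of the mitochondrial transcription termination factor family, changed by -2.73 ± 0.16 (adjusted p = 1.63e-09), from 17.3 ± 0.54 to 2.59 ± 0.572 CPM. MTPAP, the poly(A) polymerase that adds the tails of mitochondrial RNAs, changed by -2.39 ± 0.13 (adjusted p = 6.6e-10), from 48.9 ± 2.17 to 9.34 ± 1.36 CPM. Their samples did not overlap with untreated. Their part in the rRNA and mRNA ratios was not tested.

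After GO-Rg3, SLIRP, a binding partner of mitochondrial mRNAs, was the 1 gene of the 48 past the test (-1.09 ± 0.16, adjusted p = 0.00721), where 0.105% of all genes passed with lower and 0.0585% with higher values. In GO-Rg3 against GO, 7 genes passed with higher values and 0 with lower, where 7.33% and 6.25% of all genes did, with a median of 0.23. They were led by TFB2M (0.98 ± 0.17, adjusted p = 0.000801), PNPT1 (0.87 ± 0.16, adjusted p = 0.00144) and FASTKD1 (0.80 ± 0.15, adjusted p = 0.00173), a regulator of MT-ND3 mRNA. These values again share the GO samples with GO against untreated.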

How the data were processed

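RNA of 12 Huh7 samples was made into libraries with a stranded kit for poly(A) RNA. The deposited values are raw counts per Ensembl gene; per the labels the authors used GRCh37 and featureCounts, and the counting options and annotation release are not given in the sources used here. Samples were grouped by their labels. The 17092 genes that reached 10 counts in 3 or more samples were scaled by TMM and tested with edgeR 4.0.16 (quasi-likelihood, R 4.3.3), all 12 samples in 1 fit without a block, with Benjamini-Hochberg adjustment over all genes tested. The threshold was an adjusted p of 0.01, also with an absolute log2 fold change above 1. SEs are the log2 fold change divided by the square root of F. DESeq2 1.42.0, other scalings, filters and samples were alternatives.

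The members and gene lists were chosen with earlier results of these data known. The study's methods state the filter and thresholds, with DESeq2 as the tool. Shares and ratios come from raw counts and carry no test. All 13 mRNAs and 2 rRNAs are described; from the 2 nuclear lists, the 3 largest changes past the adjusted p in each comparison were named, and the 3 nuclear copies of highest mean. Where a symbol had several rows, the row of highest mean count was used. Markers of other cell types were summed as CPM (counts per 1000000 counts): the 5 fibroblast markers lay between 4.22 and 7.19 in untreated, GO and GO-Rg3 samples and between 11.2 and 12.0 after GO-Rg3-DOX, with DCN under 10 counts in every sample. Gene positions, strands and sequences are from the GRCh37 genome and a GENCODE annotation lifted to it, which is not the authors' annotation. Count totals were 27802871 to 38877420 per sample, and intervals and floors cover counting error only. Python 3.11.15 with pandas 2.3.3 was used for the tables.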

Additional observations from a re-analysis of the deposited data

How the results depend on the processing

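The number of members with an adjusted p below 0.01 kept within 1.5 times its main value of 29 (GO), 22 (GO-Rg3-DOX) and 22 (GO-Rg3 against GO, lower) under other scalings, filters, DESeq2 and a threshold of 0.05, except for GO-Rg3 against GO in a fit of its 6 samples alone, which gave 7. In the main fit 12.1%, 25.5% and 6.25% of all genes passed in these directions. Of the 29 for GO, 14 were tRNAs, of which 7 had at least 10 counts in every sample. The filter favours the other tRNAs where they rose. For GO-Rg3 against untreated the count was 0, and 1 (MT-ATP8) with no filter. Leaving out 1 sample at a time gave 23 to 29, 0 to 0, 19 to 21 and 12 to 25 for the 4 comparisons, the 12 without GO-Rg3 replicate 3. The median log2 fold change of the 13 mRNAs ranged from 1.23 to 1.97 for GO (1.23 without GO replicate 1), 0.24 to 0.37 for GO-Rg3, 1.38 to 1.89 for GO-Rg3-DOX (1.38 without its replicate 1) and -1.66 to -0.93 for GO-Rg3 against GO (-0.93 without GO replicate 1) when each sample was left out, and was 1.27 for GO-Rg3-DOX under library totals; the median of all genes then moved to -0.11 (GO), -0.47 (GO-Rg3-DOX) and 0.12 (GO-Rg3 against GO). For the 13 mRNAs alone the share was 5.29% in untreated and 6.56% in GO-Rg3 samples, and of the counts outside the members it was 7.80% in GO-Rg3 samples. The causes of these shifts, among them the smaller number of samples in some fits, were not tested.

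Same-numbered samples of different groups correlated in their deviations from the group means by -0.02 to 0.25 (mean 0.09, other numbers -0.05), and the labels give the numbers no meaning, so these samples were taken to share a number and nothing else. With a replicate block the members past the adjusted p were 31, 0, 22 and 24, and the medians of the 13 mRNAs 1.64, 0.30, 1.64 and -1.30.

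Calls of the 15 mRNAs and rRNAs were lost in 22 of 225 gene settings for GO-Rg3 against GO and 7 of 225 for GO-Rg3-DOX. Reversed directions were all in tRNAs that missed the threshold. Across fits that each lack 1 sample, their values ranged, for GO-Rg3, from -0.11 to 0.65 (MT-TD) and -0.040 to 0.58 (MT-TT), for GO-Rg3-DOX, from -0.57 to 0.25 (MT-TI), -1.11 to 0.18 (MT-TQ), -0.46 to 0.16 (MT-TM) and -0.35 to 0.66 (MT-TK), and for GO-Rg3 against GO, from -0.88 to 0.21 (MT-TG), -0.70 to 0.34 (MT-TR), -0.36 to 0.33 (MT-TH) and -0.32 to 0.77 (MT-TS2). Under library totals they were -0.11 (MT-TK) and -0.13 (MT-TH) in GO-Rg3-DOX and 0.13 (MT-TH) in GO-Rg3 against GO. At 1 to 81 counts per sample, such tRNAs are limited by depth.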
